A study of Mus musculus with 4 samples.

Results

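The E2F genes and the DP genes that encode their dimerization partners were examined as places where E2F1 itself sits on the chromatin. An E2F1 peak was counted as belonging to a gene when it overlapped the window from 1000 bp upstream to 500 bp downstream of any of its transcript starts in the GENCODE M1 annotation of mm9. By this rule, 9 of the 10 genes had a peak, and each had 1. These were E2f1, E2f2, E2f3, E2f4, E2f5, E2f7, E2f8, Tfdp1 and Tfdp2, with 9 of the 4523 deposited peaks, and E2f6 had none. The measurements are E2F1 ChIP-seq of mouse embryonic stem cells (ESCs) that were grown in 1 of 2 media, with 2 biological replicates for each medium. Serum ESCs were kept in fetal calf serum with LIF, and 2i ESCs in serum-free Ndiff medium with LIF and the inhibitors PD0325901, which blocks MEK and thereby ERK, and CHIR99021, which blocks GSK3. The ESC line used for the ChIP is not given in the sources used here, and whether the replicates came from separate cultures is not stated. The p-values therefore refer to the spread between these samples, with variances partly borrowed from all peaks.

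Most E2F proteins bind DNA as dimers with a DP protein and control genes needed for entry into S phase. E2F1, E2F2 and E2F3 are known as activators that are held back by RB, E2F4 and E2F5 act mainly as repressors together with P107 and P130, and E2F6 represses without pocket proteins, within Polycomb-related complexes. E2F7 and E2F8 are atypical members that bind DNA without a DP partner and repress E2F targets. Several E2F genes are themselves E2F targets, so the family is known for feedback on its own promoters.

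The peaks crossed a transcript start at 7 of the 9 genes, and those at E2f2 and E2f3 lay to one side of the start whose window they met. Positions are given in bp from the start along the direction of transcription, with minus for upstream. At E2f1 the peak (chr2:154395041-154395771, minus strand) ran from -143 to 587 around the most upstream start, and 46.8% of its bases were untranslated exon and 33.7% coding. The E2f2 peak (chr4:135728482-135728857, plus strand) lay wholly inside the first exon, from 173 to 548, with 56.9% of its bases in the 5' untranslated region and 43.1% coding. The peak lay upstream of the other 2 annotated starts of E2f2, by at least 7841 bp, and their windows held no peak. The E2f3 peak (chr13:30076120-30076747, minus strand) was wholly intronic in the longer transcript, from 790 to 1417, and stood at -659 to -32 from the start of the shorter transcript. E2f3 is known to make its long and short proteins from separate promoters, and the window of the downstream start alone held a peak.

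The E2f4 peak (chr8:107821405-107821867) reached from -158 to 304 around the single start, and the E2f5 peak (chr3:14578535-14579088) from -136 to 417. At E2f7 the peak (chr10:110182031-110182512) was upstream of the gene for 96.3% of its bases and ended at 17. The E2f8 peak (chr7:56136546-56137157, minus strand) spanned -191 to 420 around the first start, and its window was shared with Gm2788, so that the signal there cannot be assigned to 1 of these genes. The peaks at Tfdp1 (chr8:13338412-13339293) and Tfdp2 (chr9:96096519-96097013) covered -339 to 542 and -175 to 319 around the first start. Of the 37 annotated transcripts of the 10 genes, 25 had a window that overlapped a peak. The 2 starts of E2f6 lay at least 83.3 kb from the nearest listed peak, which was at Rock2 (chr12:16901341-16902112). The table lists peaks only, so the level of E2F1 at E2f6 was not measurable here.

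**Figure D1:**
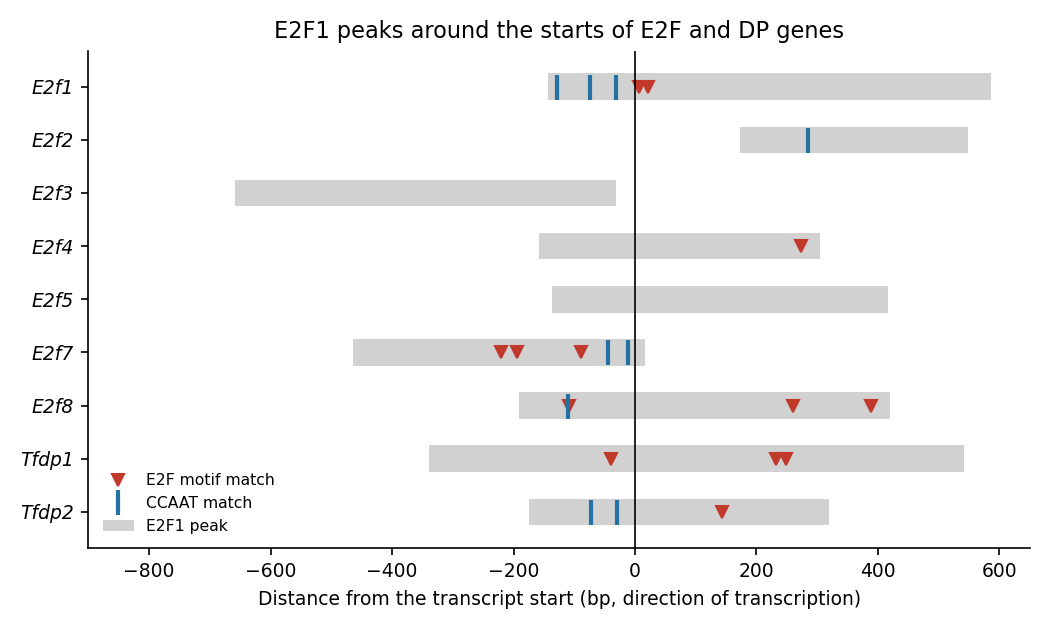
Position of the 9 E2F1 peaks (grey bars) relative to the most upstream transcript start whose window they overlap, in bp along the direction of transcription; triangles mark E2F motif matches and vertical bars CCAAT matches. The E2f2 peak begins at 173, the E2f3 peak ends at -32, and the other 7 bars cross the line at 0.

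Sequences of the peaks were read from the NCBIM37 (mm9) genome and searched on both strands for the letters TTCCCGC as well as the string TTCGCGC, and for the string TTGCCGC as well as the string TTGGCGC, which are common forms of the E2F site. Of the 9 peaks, 6 held at least 1 match along their whole length, against 36.0% of the 4509 peaks on assembled chromosomes, and 3 held 3 matches, against 1.86% with 3 or more. The peaks at E2f7, E2f8 and Tfdp1 held 3 matches each, the E2f1 peak held 2, those at E2f4 and Tfdp2 held 1, and those at E2f2, E2f3 and E2f5 held none. Longer peaks have more room for a match, and within 200 bp of the peak centre 4 of the 9 peaks held a match, against 29.3% of all placed peaks. In this window E2f7 and Tfdp1 held 3 matches, as did 0.798% of all placed peaks (3 or more). The matches at E2f1 and E2f4 lay just outside it. The sequences below, at E2f1, E2f7 and Tfdp1, are shown as examples of more than 1 match near a start, with the matched letters in capitals, read 5' to 3' along the gene's strand unless stated, and with positions on mm9. The pair at E2f1 stands at the start itself, with middles at 7 and 21 and 7 bases between the matches (chr2:154395600-154395628, minus strand).
E2f1: tttcGCGGCAAaaaggatTTGGCGCgtaa

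At E2f7 the matches stood upstream of the gene, with middles at -220, -195 and -89 from the first start, and the outermost was 4 bp from the peak centre (chr10:110182221-110182460, plus strand).
E2f7: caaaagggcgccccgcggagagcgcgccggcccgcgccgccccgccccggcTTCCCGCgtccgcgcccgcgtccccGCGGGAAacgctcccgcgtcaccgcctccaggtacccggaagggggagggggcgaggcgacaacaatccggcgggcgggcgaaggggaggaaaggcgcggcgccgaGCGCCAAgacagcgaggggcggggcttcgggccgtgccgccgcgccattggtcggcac

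At Tfdp1, 2 matches with 10 bases between them lay in an intron, at 232 and 249 from the first start (chr8:13338977-13339006, plus strand), and the third stood at -40 from it (chr8:13338698-13338724, printed on the minus strand, where it reads in this form).
Tfdp1 intron: ccgTTCCCGCcccagcccggTTCCCGCgtc
Tfdp1 upstream: tgcgcgccttTTCGCGCcttcggcgcc

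The E2f2 peak is the only 1 of the 9 that was called different between the media (values are given further on), and none of the 4 letter strings occurs in it. Its coding part is printed for that reason, without capitals since nothing matched (chr4:135728696-135728857, plus strand, beginning at the start codon). No match says only that these letters are not in this peak.
E2f2: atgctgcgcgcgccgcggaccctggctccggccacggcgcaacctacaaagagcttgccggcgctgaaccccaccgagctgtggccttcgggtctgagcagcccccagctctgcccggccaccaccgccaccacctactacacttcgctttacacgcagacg

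The CCAAT box, which is bound by NF-Y and often accompanies E2F sites in cell-cycle promoters, was searched as the letters CCAAT. It occurred in 5 of the 9 peaks, at E2f1 (3 matches), E2f7 and Tfdp2 (2 each), E2f2 and E2f8 (1 each), against 26.3% of all placed peaks. The match at E2f8 overlapped an E2F match on the other strand. The letters TTTGAA, a form of the cell-cycle homology region, occurred in the E2f8 peak alone, at -17 from the first start, against 5.72% of all placed peaks. Within 200 bp of the centre, GC made up 69.3% (E2f4) to 82.5% (Tfdp1) of the bases with a median of 76.3%, and the median of all placed peaks was 75.6%. CpG dinucleotides ran from 10.7 per 100 bases at E2f4 to 18.0 at Tfdp1, with a median of 14.2 against 13.5 for all placed peaks.

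The deposited value of a peak is a normalized count, the reads over the peak divided by 1 factor per sample. Low values in a sample were spaced by a constant step that 1 read is worth, and 99.95% of all values were whole multiples of their sample's step (within 0.01 reads). Reads in peaks ranged from 248878 in serum replicate 1 to 710519 in the first 2i replicate. The 9 peaks held from 19 reads (E2f2 in 2i replicate 2) to 642 reads (Tfdp1 in 2i replicate 1) per sample.

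E2F1 occupancy at the E2F and DP genes was compared between serum and 2i ESCs with limma on log2(normalized count + 1), fitted over all 4523 peaks, and calls required both a log2 fold change past 1 and an unadjusted p under 0.05. Of the 9 peaks, 1 was called, at E2f2, and it was higher in serum. In bulk ChIP, binding in fewer cells and weaker binding in each cell cannot be told apart. The 1 call is 11.1% of the 9, where 10.3% of all peaks were called in either direction and 4.82% were called higher in serum, so a count of 1 is near the background of the table. An unadjusted p under 0.05 was likewise reached at E2f2 alone, against 17.8% of all peaks. After Benjamini-Hochberg adjustment over all peaks, limma called 0 of the 9, against 1.46% of all peaks. These were 66 peaks, or 0 without the variance trend, and fewer than 66 with 1 replicate left out. With a block for the replicate number, 271 peaks passed, and E2f2 was the 1 of the 9 among them (adjusted p = 0.0491 from limma). The log2 fold changes of all 9 peaks were above 0, from 0.04 at E2f1 to 1.31 at E2f2, although the one at E2f1 turned to -0.046 after rescaling to the same total and to -0.16 after cyclic loess normalization. With 1 replicate left out, values under 0 were reached at E2f1 (-0.18) and Tfdp2 (-0.0082), both without 2i replicate 1, and at Tfdp1 (-0.032, without serum replicate 2). Of all peaks, 47.8% had a log2 fold change above 0. The median was 0.31 over the 9 peaks and -0.03 over all peaks. At 5 of the 9 peaks (55.6%), at E2f2, E2f3, E2f4, E2f5 and E2f8, both serum values lay above both 2i values, which held for 24.9% of all peaks. A two-sided exact permutation test on 1 peak cannot give a p below 0.333 with 2 replicates in each medium. The p-values from limma lean on variances borrowed from the whole table in its eBayes step.

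**Figure D2:**
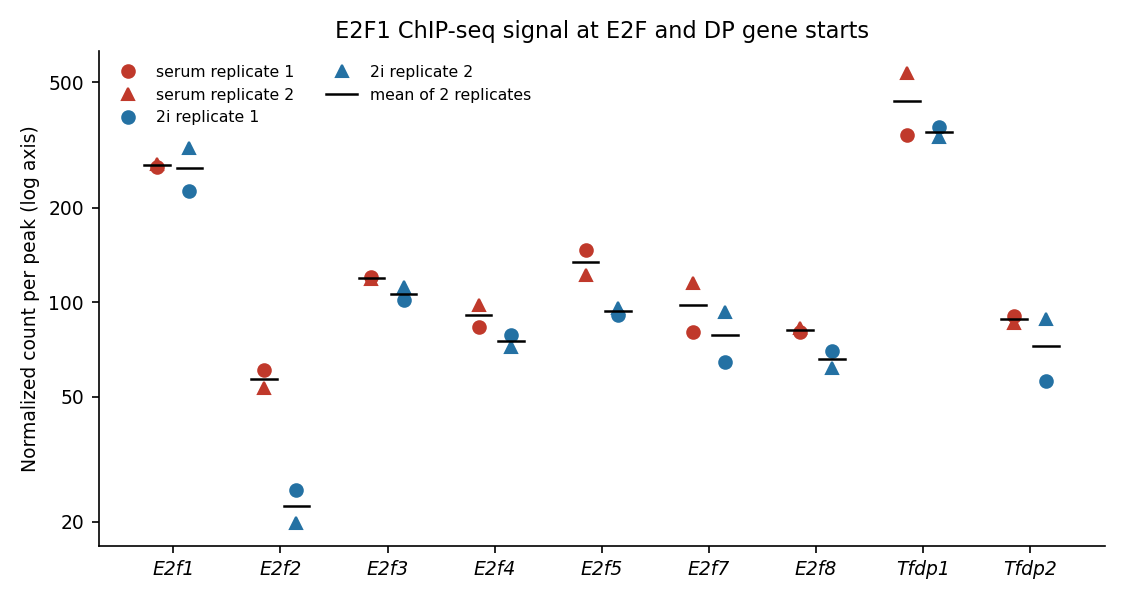
Normalized count of each of the 9 peaks (log axis) in serum (red) and 2i (blue) ESCs, with replicate 1 as circles, replicate 2 as triangles and the mean of the 2 replicates as a line. The E2f2 values fall from 61.0 and 53.4 in serum to 25.2 and 19.8 in 2i, and at E2f1 the serum values lie between the 2i values.

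E2f2, which encodes an activator E2F, showed the largest fold change of the 9 peaks. Its normalized count was 61.0 and 53.4 in the serum replicates and 25.2 and 19.8 in the 2i replicates. Both serum values were thus above 2 times either 2i value. The mean was 57.2 ± 5.37 (SD, n = 2) for serum and 22.5 ± 3.80 (SD, n = 2) for 2i. The log2 fold change of 1.31 (standard error 0.39) is 2.49-fold on this scale. The 95% interval from limma ran from 0.46 to 2.17, the unadjusted p was 0.00597 and the adjusted p was 0.121. By unadjusted p the peak ranked 223 of 4523. It was also the weakest of the 9, resting on 35 and 56 reads in serum and 45 and 19 reads in 2i, and on reads alone the standard error of its log2 fold change would be 0.25. The peak stayed called in all 11 other fits that included it, with adjusted p from 0.0491 to 0.331. It is not part of the table when peaks with a mean normalized count under 50 are left out, and it is not a member when the window ends 100 bp past the start.

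E2f1 and E2f3 encode the other activators, and their peaks differed by less than the spread between replicates or only slightly. The E2f1 peak had normalized counts of 270.1 and 274.5 in serum and of 225.6 and 308.8 in 2i, so the serum values lay between the 2i values. Its log2 fold change was 0.04 (standard error 0.26, 95% interval -0.52 to 0.61, adjusted p = 0.944 from limma). The E2f3 peak had 120.2 and 118.2 in serum and 101.3 and 111.6 in 2i. The 2 groups did not overlap, but the log2 fold change was only 0.16 (standard error 0.25, unadjusted p = 0.535 from limma). It was 0.094 without 2i replicate 1 and 0.073 after rescaling to the same total.

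E2f5, which encodes a repressor E2F that binds P130, had the second largest fold change. Its normalized count was 146.4 and 122.0 in serum and 91.3 and 96.0 in 2i, so the groups were apart. The log2 fold change was 0.51 (standard error 0.26), with a 95% interval from -0.06 to 1.08 and an unadjusted p of 0.0756 from limma, which did not pass the test. E2f4, the E2F most often found with P107 and P130 in resting cells, had 83.6 and 98.2 in serum and 78.4 and 72.0 in 2i. Its log2 fold change was 0.27 (standard error 0.28, unadjusted p = 0.36 from limma), and it was 0.15 without serum replicate 2.

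Neither peak at the atypical E2F genes passed the test. E2f8 had 80.1 and 82.9 in serum and 70.0 and 61.5 in 2i, so that every serum value was above every 2i value. E2f7 had 80.1 and 115.3 in serum and 64.4 and 92.8 in 2i, and the groups overlapped. In each medium its replicate 2 was above replicate 1, by a log2 difference of 0.52. The log2 fold changes were 0.31 at both (standard errors 0.29 and 0.31, unadjusted p = 0.308 and 0.341 from limma, E2f8 first). With 1 replicate left out the value at E2f8 ran from 0.22 to 0.40. At E2f7 it was 0.05 without 2i replicate 1 or without serum replicate 2, and 0.57 without either of the other replicates.

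At neither DP gene did the peak pass the test, and at both 1 replicate stood apart from the other 3 samples. Tfdp1, which encodes DP1, had 339.7 and 534.7 in serum and 359.4 and 335.9 in 2i, so the second serum value was high and the first lay between the 2i values. The log2 fold change of 0.29 (standard error 0.29, unadjusted p = 0.327 from limma) became -0.032 without serum replicate 2, 0.62 without serum replicate 1 and 0.0036 after cyclic loess normalization. Tfdp2, which encodes DP2, had 90.6 and 85.8 in serum and 56.0 and 88.7 in 2i, so the first 2i value was low. Its log2 fold change of 0.32 (standard error 0.31, unadjusted p = 0.328 from limma) became -0.0082 without 2i replicate 1 and 0.65 without 2i replicate 2. Leaving out 2i replicate 1 likewise turned the E2f1 value to -0.18. Over the 8 peaks that were not called, the 95% intervals together reached from -0.52 to 1.08, and the upper end at E2f5 corresponds to more than 2-fold.

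**Figure D3:**
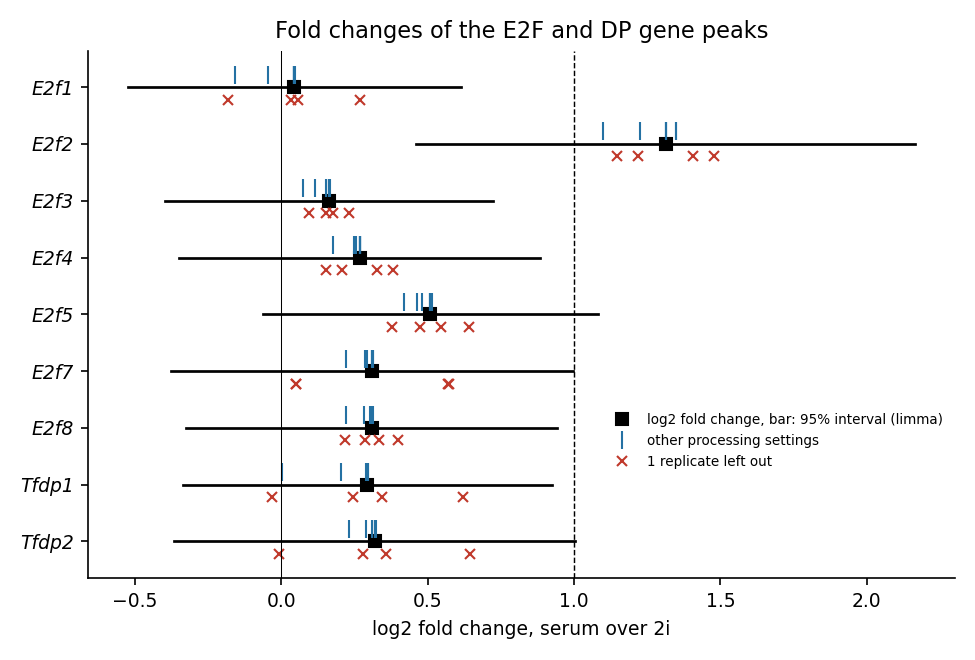
log2 fold change, serum over 2i, of the 9 peaks (squares) with the 95% interval from limma (bars), the value under other processing settings (blue ticks) and with 1 replicate left out (red crosses); the dashed line marks a log2 fold change of 1. The E2f2 interval, from 0.46 to 2.17, is the only one that stays above 0.

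**Figure D4:**
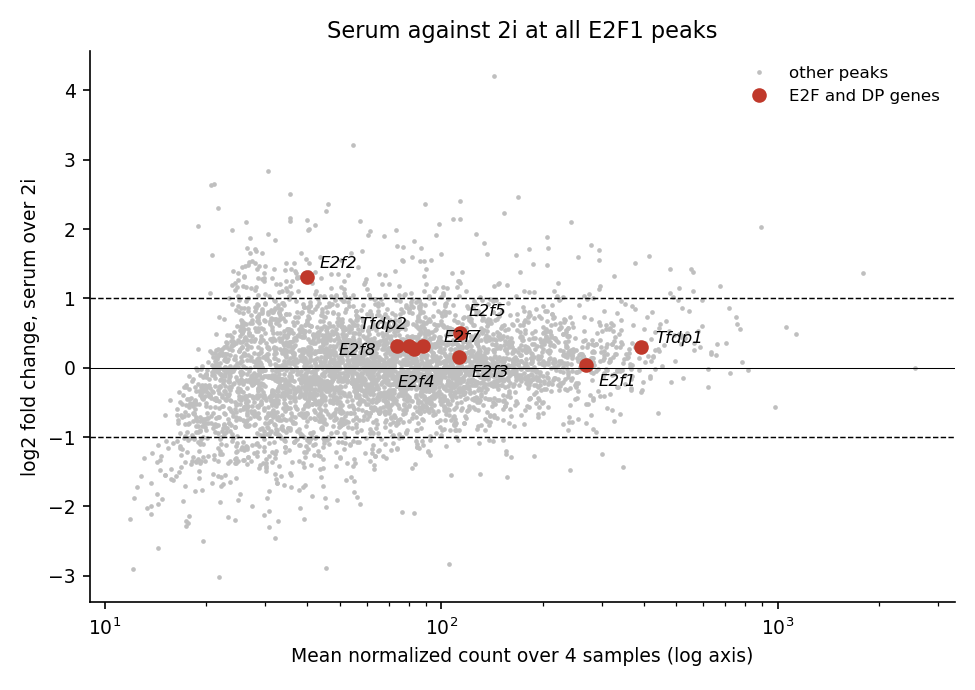
log2 fold change, serum over 2i, against the mean normalized count over the 4 samples (log axis) for all 4523 peaks (grey) and the 9 E2F and DP gene peaks (red); dashed lines mark log2 fold changes of -1 and 1. The E2f2 peak, with a mean of 39.8, lies past 1, and the other 8 lie between 0.04 and 0.51.

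The spread between replicates was compared with the counting error of the reads. The log2 difference between replicates was larger than 2 counting SDs at 2 of the 9 peaks in serum (E2f7 and Tfdp1) and at 3 of the 9 in 2i (E2f1, E2f7 and Tfdp2). The same held for 25.4% of all peaks in serum and 34.8% in 2i. These 4 genes are those whose serum and 2i values overlapped. At Tfdp1 in serum the difference was 0.65 against a counting SD of 0.12, and at E2f1 in 2i it was 0.45 against 0.11. At E2f2 it was 0.19 in serum and 0.33 in 2i, within the counting SDs of 0.31 and 0.39.

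Levels were compared between genes per kb of peak length, as normalized counts per kb. In serum the order was Tfdp1 (496), E2f1 (373), E2f5 (243), E2f7 (203), E2f4 (197), E2f3 (190), Tfdp2 (179), E2f2 (152) and E2f8 (133). The replicate values of neighbours in this order overlapped between E2f5 and E2f7, E2f7 and E2f4, and E2f4 and E2f3, and were apart for the other neighbours. In 2i the order began with Tfdp1 (395) and E2f1 (366), whose values overlapped, and ended with E2f8 (108) and E2f2 (60.02), whose values were apart. The 5 genes between them, from E2f3 (170) to Tfdp2 (146), overlapped each with the next. The E2f2 level thus stood above E2f8 in serum and below it in 2i. Among all peaks, the E2f2 level per kb was higher than 62.1% of peaks in serum and than 6.12% in 2i. Tfdp1 and E2f1 were higher than 97.4% and 93.9% of peaks in serum and than 96.8% and 96.0% in 2i. The median over the 9 peaks was 180 per kb against 126 for all peaks, and the median lengths were 553 and 480 bp.

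Other genes of the RB-E2F pathway were examined with the same window. Of 41 genes in 6 groups, 19 had a peak, with 20 peaks in all, of which 0 were called higher in serum and 1 was called higher in 2i by limma. Of all 4523 peaks, 5.48% were called higher in 2i, so a count of 1 in 20 is near the background. The called peak was at Cdkn2a, which encodes the CDK inhibitor P16 and the P53 regulator ARF. The peak (chr4:88940467-88940922) was not assigned to the start for P16 or the start for ARF. Its mean was 18.7 ± 1.83 (SD, n = 2) for serum and 71.7 ± 5.50 (SD, n = 2) for 2i. The log2 fold change was -1.88 (adjusted p = 0.0378 from limma). The peak drops out when peaks with a mean normalized count under 50 are left out. With 1 replicate left out the Cdkn2a peak stayed called, but its adjusted p from limma ran from 0.0693 to 0.221, and without the variance trend it was 0.0623. Over the 20 peaks the median log2 fold change was 0.07, with 11 above 0, against 0.31 over the 9 E2F and DP gene peaks. Of the pocket protein genes, which encode the proteins that restrain E2Fs, Rb1 had a peak, with a log2 fold change of 0.97 (unadjusted p = 0.00337 and adjusted p = 0.0963 from limma). It was not called because the fold change lay under 1, while its p was below that of the called E2f2 peak. Rbl1 and Rbl2 had none. Of 7 genes for the MuvB core, with which E2F4 and DP form the DREAM repressor, and its partners, 4 had a peak, with log2 fold changes from -0.53 to 0.69 and no call. The highest was at Mybl2, which encodes the MuvB partner B-MYB (unadjusted p = 0.0472 and adjusted p = 0.271 from limma). It was the only 1 of the 4 above 0, and the median was -0.14. The lowest was at Foxm1 (unadjusted p = 0.063 and adjusted p = 0.302 from limma). Of 11 genes for E2F6 complex partners, 7 had a peak although E2f6 itself had none. The log2 fold changes of these 7 peaks ran from -0.23 to 0.45 with no call. Rnf2, which encodes a core Polycomb E3 ligase, was among the 7. The cyclin and kinase genes had 4 peaks at 3 of 9 genes (Ccne1, Ccne2 and Ccna2), with log2 fold changes from 0.15 to 0.62, and no call. The highest was at Ccne1, which encodes cyclin E1 (unadjusted p = 0.0341 and adjusted p = 0.238 from limma). The CDK inhibitor genes had a peak at 3 of 7, with log2 fold changes from -1.88 to -0.05. Among these, Cdkn2c, which encodes the CDK inhibitor P18, had -0.93 (unadjusted p = 0.0453 and adjusted p = 0.266 from limma) and was likewise under the fold cut-off. The genes for degradation and cofactors had a peak at 1 of 4, at Fzr1, with a log2 fold change of -0.47 that was not called.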

How the data were processed

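E2F1 ChIP-seq of 4 mouse ESC samples was analysed, 2 from serum and 2 from 2i. The authors aligned paired-end reads with BWA to mm9. After removal of duplicates and of blacklisted regions they called peaks per sample with MACS2, intersected the replicates, merged serum and 2i peaks and counted reads with bedtools. They deposited a signal per peak and sample, which the values show to be reads divided by a factor per sample. Tool versions are not given in the sources used here. Only peaks found in both replicates of a medium entered the table. Of its 18092 values, 9 serum values were deposited as exactly 2 and were kept. Groups came from the sample titles.

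log2(normalized count + 1) was fitted in limma 3.58.1 under R 4.3.3, using eBayes with a variance trend and Benjamini-Hochberg adjustment over all peaks, without a block. The cut-offs of a call (log2 fold change past 1, p under 0.05) are those of the study. The study applied them to a test of read counts, so its calls and those given here need not be the same. At these cut-offs the paper reports a smaller share of differing E2F1 sites than the 10.3% called here. The pseudocount understates fold changes of weak peaks. Every peak of the 10 genes is named, and other pathway genes have values where called. Rb1, Mybl2, Foxm1, Ccne1, Cdkn2c and Fzr1 were added after their values were seen. The genes, pathway lists and tests were chosen with earlier results of these data known. Peaks were placed on NCBIM37 with GENCODE M1, sequence features used the 4509 peaks on assembled chromosomes, and summaries used Python 3.11.15 with numpy 2.4.6. Whether peak starts count from 0 or 1 is not stated, which changes no membership. Alternatives were other pseudocounts, a minimum mean, rescaling, cyclic loess, no trend, a replicate block, leaving out each replicate, and other windows. Counting errors cover reads only. The sequence at E2f8 is not reported here.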

Additional observations from a re-analysis of the deposited data

How the results depend on the processing

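The number of called peaks among the 9 was 1 with pseudocounts of 0.1 and 8, under 3 other scalings (same total, median of ratios, cyclic loess), without the variance trend, with the replicate block, and in each of the leave-one-out fits, where the lone sample is assumed to vary like the others. It was 0 with a minimum mean normalized count of 50, which removes the E2f2 peak before the test. After adjustment the number was 0 in these settings apart from the replicate block. Without the variance trend that 0 says nothing about the 9 peaks, since 0 of all 4523 peaks passed. The same limit holds without serum replicate 1. With the replicate block the adjusted number was 1, and the adjusted p of E2f2 from limma was 0.0491. Whether same-numbered samples were prepared together is not stated in the sources used here. The deviations of same-numbered samples had a correlation of 0.048 over all peaks, which does not settle it. The block changed the calls over all peaks from 466 to 504 and, after adjustment, from 66 to 271.

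The log2 fold change of E2f1 reversed to -0.046 after rescaling to the same total and to -0.16 after cyclic loess normalization, and ran from -0.18 to 0.27 with 1 replicate left out. The value ran from -0.032 to 0.62 at Tfdp1 and from -0.0082 to 0.65 at Tfdp2 with 1 replicate left out, and the cause was not tested. Of the 107 values of single peaks under other settings, the other 102 kept their direction and their side of the threshold. The number of peaks was 9 with a window from 2000 bp upstream, with the peak centre inside the window and with protein-coding transcripts, and 8 with a window ending 100 bp downstream, which leaves out E2f2. Tests on reads with a count model were planned and not run. Leaving out serum replicate 1, the shallowest sample, kept the E2f2 call at a log2 fold change of 1.22.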

Other observations

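Peaks of other genes with the pattern most like that of E2f2 were sought as a description, by Euclidean distance over the 4 values of log2(normalized count + 1). The nearest was at Dact1, which encodes a regulator of Wnt signaling, with normalized counts of 55.8 and 58.1 in serum and of 26.3 and 20.9 in 2i (distance 0.199). The next were at 8430410A17Rik (0.309) and Galnt9 (0.397). The 4 samples leave little room to tell patterns apart, and nothing about shared control follows from it.

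The number of E2F motif matches within 200 bp of the peak centre was compared with the calls over all placed peaks. Of the peaks without a match 10.6% were called, of those with 1 match 9.71%, and of those with 2 or more 8.68%, with median normalized counts of 62.7, 62.4 and 65.1. Peaks share neighbourhoods and are not independent replicates, so no test was made.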
